A study of Arabidopsis thaliana with 6 samples.

Results

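Sucrose was set against glucose in Arabidopsis thaliana cotyledons after 48 h of vascular induction, with 1 array for each sugar. A gene's difference was its log2 signal on the sucrose 48 h array minus that on the glucose 48 h array, after each array's median had been subtracted. A probe set, the group of probes that measures 1 transcript, was described when the platform's table gave it exactly 1 gene and its deposited log2 signal was 6 or more on at least 1 of both 48 h arrays. That kept 7885 probe sets of 7820 genes, out of 16722 probe sets of 16548 genes with 1 gene. The threshold ran between AT5G17660, at 6.00 in sucrose and 5.53 in glucose with a difference of 0.42, and AT4G16900, at 5.68 in sucrose and just under 6.00 in glucose with a difference of -0.37.

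All 6 arrays of the study held RNA from whole cotyledons of wild-type seedlings that were 6 days old, raised at 22 °C under continuous light in MS liquid. The cotyledons were cultured with the synthetic auxin 2,4-D at 1.25 mg/L, the cytokinin kinetin at 0.25 mg/L and bikinin at 10 µM, which inhibits GSK3-like kinases, and with 5% sucrose or 5% glucose. Each sugar was sampled at 0, 24 and 48 h, and every group was 1 array. The times are those of the sample titles. A second time label reads 72 h on both 48 h arrays and on the other sucrose arrays, and 34 h on the array titled glucose 24 h. With 1 array a side there was no replicate spread and no test was made. The pair of 0 h arrays shows how far a pair of arrays lay apart before culture, and its values are given as a gauge. RNA of a whole organ was measured, so fewer cells of a type and less RNA per cell cannot be told apart.

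In this culture system, called VISUAL, mesophyll cells of the leaf lose their identity, pass through a procambium-like state and become xylem vessel or phloem sieve elements. Vessel cells lay down a secondary wall of cellulose, xylan and lignin and then empty themselves by programmed death. Sugar in the medium is carbon and also a signal: plant cells short of sugar switch on recycling routes such as autophagy and the breakdown of amino acids and lipids, while well-supplied cells make starch, anthocyanin and new cells.

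A difference of 1 or more in size on the log2 scale, which is 2-fold, was taken as a call. At 48 h, 686 described probe sets (8.7%) were at least 2-fold lower in sucrose than in glucose and 417 (5.29%) at least 2-fold higher. At 24 h the counts were 310 lower (3.98%) and 404 higher (5.19%) of 7786 probe sets, and at 0 h 93 lower (1.28%) and 290 higher (3.99%) of 7276. The share lower in sucrose was thus larger at 48 h than in either earlier pair, and the share higher was close to that at 24 h. At 4-fold, 265 probe sets (3.36%) were lower and 30 (0.38%) higher at 48 h, against 9 lower and 27 higher at 0 h. The largest sizes were -4.52 and 3.25. The standard deviation of the differences over probe sets was 0.80 at 48 h, 0.62 at 24 h and 0.51 at 0 h, and 95% of differences were under 1.74, 1.33 and 1.02 in size in the same order.

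**Figure D1:**
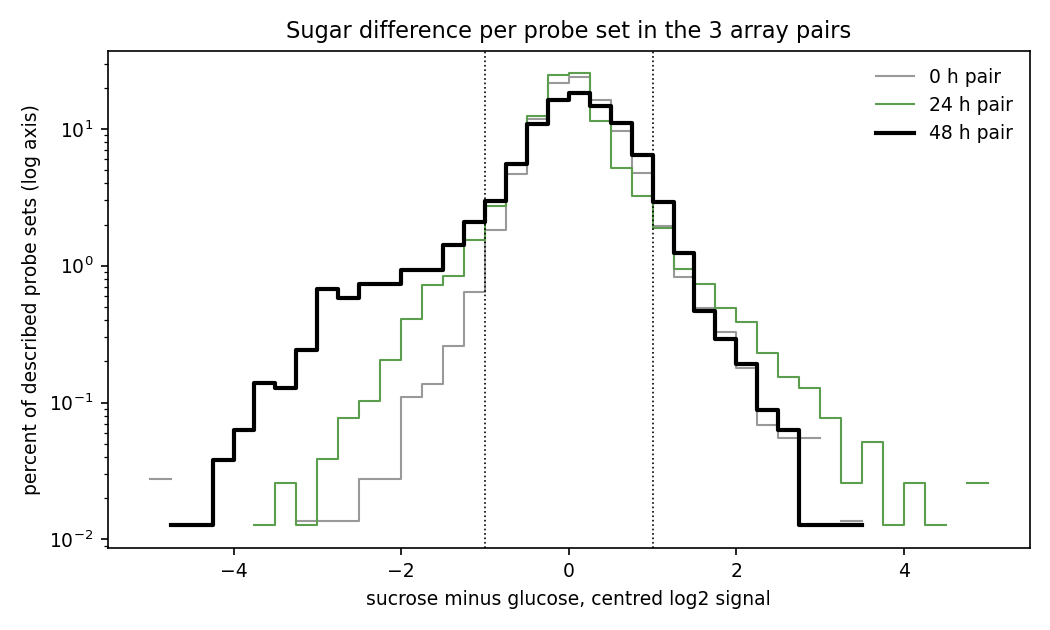
Percent of described probe sets (log axis) in each bin of the sucrose minus glucose difference of centred log2 signal, for the 0 h, 24 h and 48 h pairs, with dotted lines at the 2-fold calls and all values past the axis in the end bins. The 48 h pair has a long arm below -1, where 8.7% of its probe sets lie against 1.28% in the 0 h pair, and no such arm above 1.

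The 2-fold balance moved with some choices. After a loess fit on the mean signal was subtracted, the counts were 777 lower and 296 higher, so that 72.4% of calls were lower against 62.2% before. Over all 19425 bright probe sets outside the controls, with or without a gene name, 1286 were lower and 2626 higher, or 32.9% lower. Of the 11102 bright probe sets that the platform table did not list, 24.95% were called, 2192 higher and 578 lower. Most of that excess lay in 7083 unlisted probe sets numbered below all listed ones, whose bright members were called higher 1463 times and lower 12 times. In that block the deposited median was 5.10 on the sucrose 48 h array and 4.17 on the glucose 48 h array, and 4.21 on the sucrose 0 h array and 3.62 on the glucose 0 h array. The 10 background control probe sets with 16 to 25 G or C bases ran the opposite way, with a median difference of -0.84 at 48 h, -0.15 at 24 h and -0.66 at 0 h, while the 8 with 3 to 10 such bases stood at -0.10, -0.03 and 0.14. The controls with 16 to 25 such bases lay below 0, the side of calls lower in sucrose, in every pair and furthest at 48 h. The part of this offset in the 48 h differences was not tested.

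Glucose at 48 h stood out in the course of the genes that were lower in sucrose. Of these 686 probe sets, 567 had their highest centred signal of all 6 arrays on the glucose 48 h array. Relative to the mean of both 0 h arrays, their median was -0.26 in sucrose and 0.03 in glucose at 24 h, and 0.33 in sucrose and 2.16 in glucose at 48 h. Between 24 h and 48 h 245 of them gained at least 2-fold in sucrose, with a median gain of 0.61, and 586 gained at least 2-fold in glucose, with a median gain of 1.99. On the sucrose 48 h array 255 of the 686 lay under a signal of 6. These gains use the same 48 h arrays as the calls, so their size in glucose follows in part from the choice of genes.

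The 417 probe sets higher in sucrose had another course. Their median relative to 0 h was 1.91 in sucrose and 1.52 in glucose at 24 h, and 1.76 in sucrose and 0.51 in glucose at 48 h. On the second day 71 of them dropped at least 2-fold in sucrose and 241 did so in glucose. The highest of the 6 signals was on the sucrose 24 h array for 200 of them and on the sucrose 48 h array for 110. On the glucose 48 h array 162 of the 417 lay under a signal of 6. The median gene called higher in sucrose was up on both sugars at 24 h and nearer its 0 h level in glucose at 48 h. The median gene called lower was up in glucose on the second day. The 48 h levels come from the arrays that made the calls. So the low glucose level of the higher genes and their drops in glucose follow in part from the choice of genes.

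**Figure D2:**
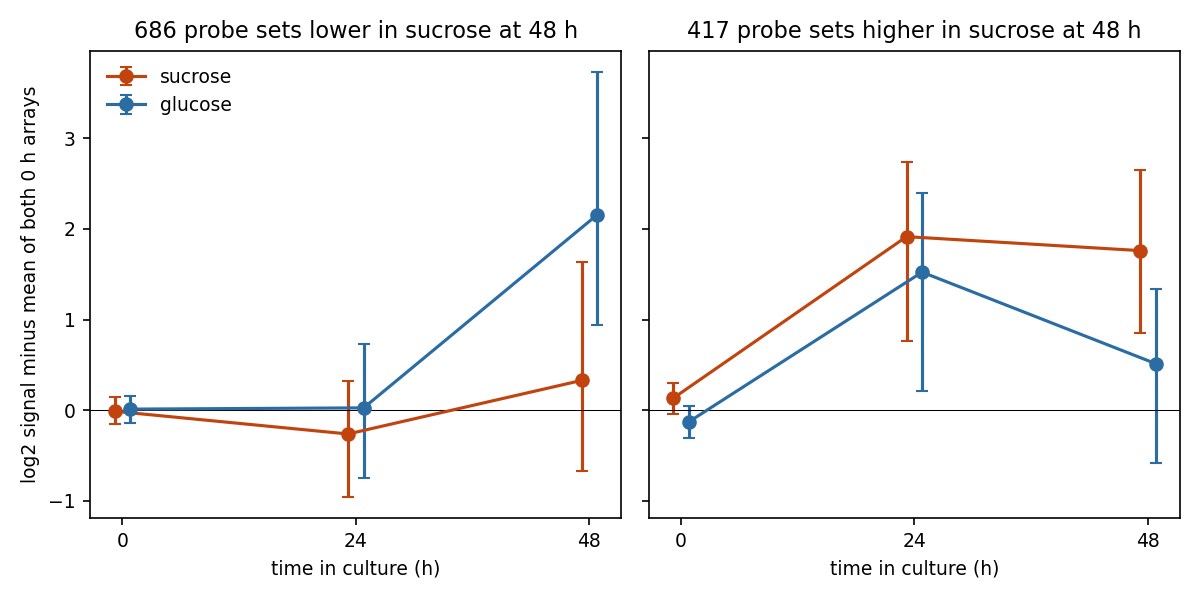
Centred log2 signal minus the mean of both 0 h arrays (y) against time in culture in h (x) for the 686 probe sets lower and the 417 higher in sucrose at 48 h. Points are medians and bars run over the middle 50% of probe sets, with 1 array per point; the left panel reaches 2.16 in glucose at 48 h against 0.33 in sucrose, and the right panel 1.76 in sucrose against 0.51 in glucose.

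The 24 h pair uses other arrays. Of the 686 lower probe sets, 500 were also below 0 at 24 h, and 106 of them (15.5%) were called lower there, against 4.29% of all those described at 48 h. Of the 417 higher, 309 were above 0 at 24 h and 105 (25.2%) were called higher, against 3.44%. At 0 h, 13 of the 686 lower were called the same way and 17 the opposite way. Of the 417 higher, 44 were called the same way and 6 the opposite way. Over the 7276 probe sets described in the 0 h pair itself, 1.28% were called lower and 3.99% higher. Part of the higher calls thus had a gap of the same sign before culture. Across the 7885 probe sets the 48 h difference correlated with the 24 h difference with Pearson's r of 0.32 and with the 0 h difference with r of 0.12. These are descriptions across genes of 1 platform, and genes are not independent replicates.

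The genes furthest below glucose mostly had a locus tag in place of a symbol in RefSeq. AT4G28790 had signals of 2.90, 2.86 and 2.76 in sucrose at 0, 24 and 48 h, against 3.82, 6.59 and 7.23 in glucose, a difference of -4.52 at 48 h or 23.0-fold. It was near the low end of the scale on all 3 sucrose arrays and above it on both cultured glucose arrays. AT5G48050 had 5.89, 4.43 and 5.98 in sucrose, against 5.95, 5.58 and 10.42 in glucose, a difference of -4.49. AT2G28580 had 4.69, 4.84 and 7.09 in sucrose, against 5.40, 5.69 and 11.19 in glucose, a difference of -4.15. Both were highest on the glucose 48 h array, and AT2G28580 had also gained in sucrose. Another 11 of the 15 lowest differences chosen by the naming rule ranged from -4.17 for AT3G51540 to -3.55 for AT2G36650, and the remaining one, AT3G15450, is described with the starvation genes. AT1G67520 ran in opposite directions at the 2 times, with 5.29 in sucrose against 4.12 in glucose at 24 h and 5.44 in sucrose against 8.96 in glucose at 48 h. Its differences were 1.17 and -3.58.

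Among genes with a symbol, the lowest was LCR29 (AT2G10535), which encodes a small cysteine-rich protein, at 2.63 in sucrose and 6.05 in glucose (-3.47). SIS (AT5G02020), a salt-induced serine-rich protein, was at 5.13 in sucrose and 7.92 in glucose (-2.84), and had differed by -1.38 at 0 h. MYR2 (AT3G04030) was at 6.52 in sucrose and 9.24 in glucose (-2.78), and PM-ANT (AT5G56450) at 6.45 and 9.17 in the same order (-2.77). NTL (AT1G11570), an NTF2-like gene, was at 5.31 in sucrose and 8.01 in glucose (-2.76). PDF1.4 (AT1G19610), of the plant defensin family and the 1 described member of the defence list, was at 3.76 in sucrose and 6.37 in glucose (-2.67). ARAB-1 (AT1G28670) was at 3.78 in sucrose and 6.35 in glucose (-2.62). For LCR29, PDF1.4 and ARAB-1 the sucrose signal lay well under 6, where transcript and background mix. SIS and NTL were also under 6 in sucrose. Each of these genes passed the signal minimum through the glucose array alone. A signal past 6 can also hold background. At 48 h the background control with 17 G or C bases was at 6.16 in sucrose and 6.84 in glucose. The one with 25 such bases was at 8.16 in sucrose and 8.84 in glucose.

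Most measured xylan genes of the secondary wall were lower in sucrose. Of the 5 xylem wall genes with a probe set, out of 70 on that list, all were described, 4 were called lower and none higher, beside 8.7% lower over all described probe sets. IRX15 and TBL31 passed the signal minimum through the glucose array alone, and with signals raised to 6 the list's median was -0.86 in place of -1.69. GUT2 (AT1G27440), also known as IRX10, a glycosyltransferase that extends the xylan backbone, had 7.12, 7.74 and 8.64 in sucrose at 0, 24 and 48 h, against 6.28, 8.29 and 10.68 in glucose. It gained on both sugars, and the gap of -2.10 at 48 h had the opposite sign to that of 0.86 at 0 h. IRX15-L (AT5G67210) and IRX15 (AT3G50220) are a related pair of DUF579 genes needed for normal xylan. IRX15-L had 9.06, 8.02 and 8.50 in sucrose, against 9.11, 8.77 and 10.50 in glucose (-2.06). IRX15 had 3.88, 3.14 and 5.17 in sucrose, against 3.83, 4.48 and 6.81 in glucose (-1.69). TBL31 (AT1G73140), a trichome birefringence-like gene of a family that acetylates xylan and other wall polymers, stood at 4.51 in sucrose and 6.02 in glucose at 48 h (-1.56). GUT1 (AT5G61840), the close relative of GUT2, was not called and stood at 8.56 in sucrose and 8.45 in glucose (0.06). At 24 h the 5 differences ran from -1.34 to 0.20 with 1 call, and at 0 h from -0.03 to 0.86.

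Both described lignin genes were called lower, beside 8.7% over all described probe sets, and only just: on the deposited signals, without centring, neither gap reached 2-fold. HCT (AT5G48930), which channels phenylpropanoids into lignin monomers, was at 9.02 in sucrose and 10.01 in glucose (-1.04), and AT5G66390, peroxidase PRX72, at 6.91 in sucrose and 7.89 in glucose (-1.03). HCT had differed by 0.55 at 24 h, and AT5G66390 by -0.64 at 0 h. The rest of the TBL family is counted with the wall families, and its calls ran both ways. TBL33 (AT2G40320), another gene of the birefringence-like family, had 4.74, 5.07 and 6.78 in sucrose, against 4.17, 7.29 and 9.11 in glucose, a difference of -2.38. TBL34 (AT2G38320) was at 6.45 in sucrose and 8.16 in glucose at 48 h (-1.76) and differed by -1.50 at 24 h.

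Phloem and procambium genes showed no common direction at 2-fold. Of 4 described phloem genes, 1 was lower and 1, the transporter gene SWEET13, was higher. SWEET13 passed the signal minimum through the sucrose array alone. Over all described probe sets 8.7% were lower and 5.29% higher. CLE45 (AT1G69588), a signal peptide of early phloem that restrains sieve element formation in the root, had 2.86, 3.02 and 6.24 in sucrose, against 2.81, 4.57 and 8.01 in glucose (-1.82). OPS (AT3G09070), a polar membrane protein that promotes sieve element formation, had 4.64, 6.57 and 7.79 in sucrose, against 4.57, 7.30 and 6.75 in glucose, and its difference of 0.98 was just short of a call. CLE25 (AT3G28455), another peptide gene of the phloem, was at 9.49 in sucrose and 8.77 in glucose (0.67). OPS and CLE25 had stood at -0.72 and -0.59 at 24 h. CLE26 (AT1G69970) and SWEET11 (AT3G48740) were under the signal minimum on both 48 h arrays.

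None of the 6 described procambium genes passed 2-fold, beside 8.7% lower and 5.29% higher over all described probe sets. PHV (AT1G30490), a class III HD-ZIP transcription factor, was nearest at 9.44 in sucrose and 8.56 in glucose (0.83). LHW (AT2G27230), a partner of TMO5 in vascular cell division, was at 9.45 in sucrose and 9.04 in glucose (0.36), a smaller gap than its 1.25 at 0 h. CLE44 (AT4G13195) and CLE41 (AT3G24770), which encode the peptide that keeps procambium dividing, were 0.30 and 0.18 apart. AT4G28650 and AT1G08590 stood at -0.13 and 0.14.

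**Figure D3:**
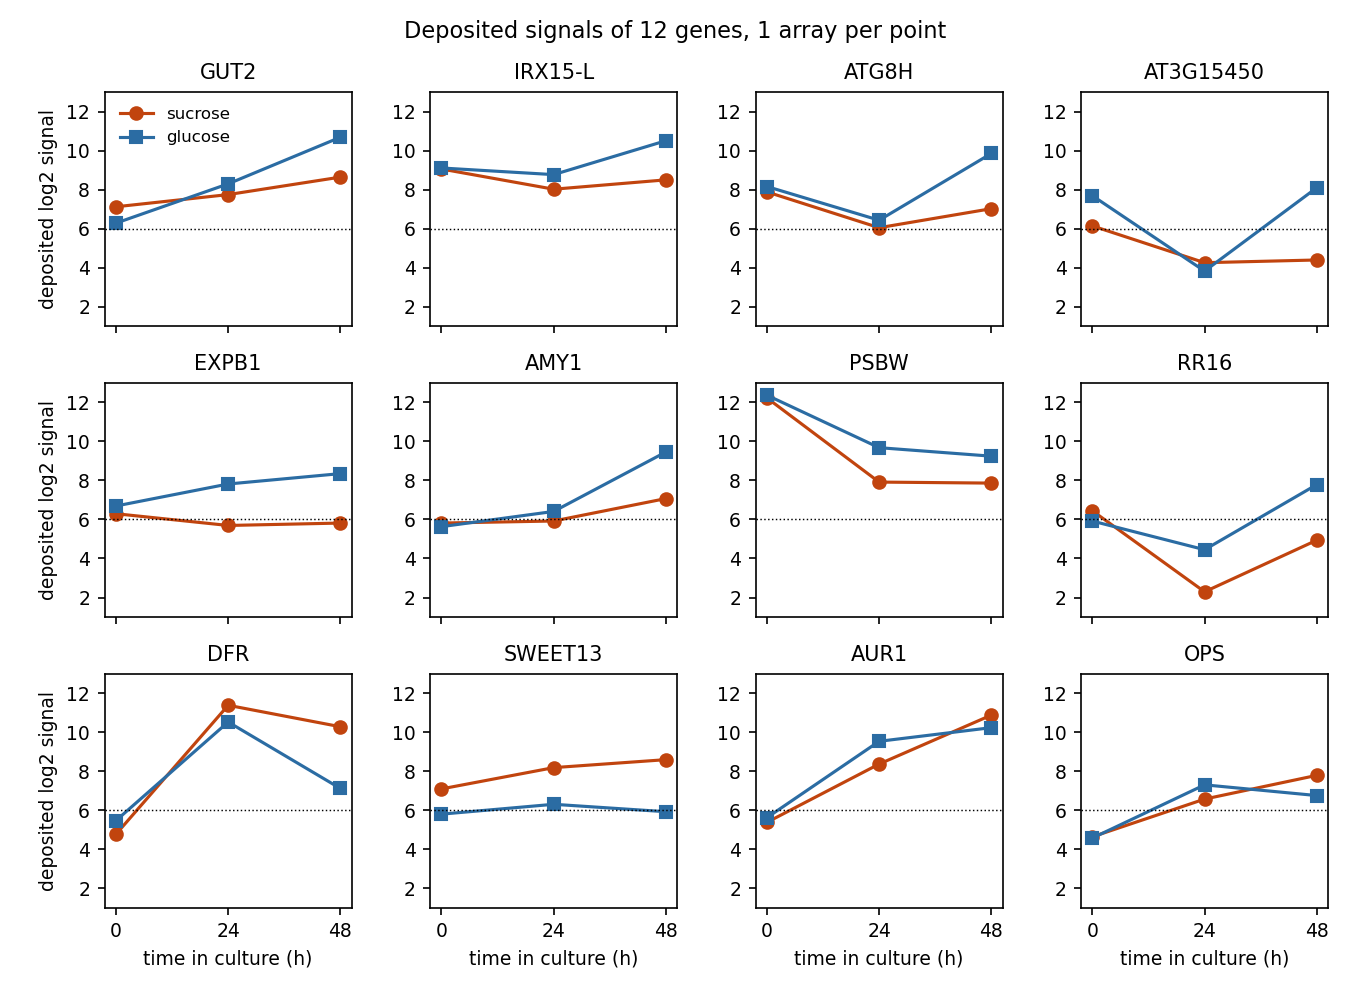
Deposited log2 signal (y) against time in culture in h (x) for 12 genes in sucrose and glucose, 1 array per point, with a dotted line at the signal minimum of 6. GUT2, IRX15-L, ATG8H, AT3G15450 and AMY1 have their widest gap at 48 h, as glucose goes up on the second day. AT3G15450 was already apart at 0 h, by -1.53. DFR parts as glucose goes down, to 7.11 against 10.28 in sucrose, and PSBW and EXPB1 have parted by 24 h.

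Several autophagy genes were lower in sucrose at 48 h. ATG8 proteins are small ubiquitin-like proteins that are joined to the membrane of the autophagosome, the vesicle that carries cell contents to the vacuole. Of 10 described autophagy genes, 5 were called lower, none higher and 9 had a negative sign, with a median of -0.94. Over all 7885 described probe sets 8.7% were called lower, 3502 had a negative sign and the median was 0.07. All 5 were ATG8 genes. ATG8H (AT3G06420) had 7.88, 6.05 and 7.02 in sucrose at 0, 24 and 48 h, against 8.16, 6.43 and 9.85 in glucose, a difference of -2.88 or 7.38-fold. ATG8E (AT2G45170) was at 5.71 in sucrose and 7.62 in glucose (-1.97), APG8A (AT4G21980, also ATG8A) at 6.48 and 8.37 (-1.94), and ATG8B (AT4G04620) at 6.79 and 8.48 (-1.74), sucrose before glucose. ATG8F (AT4G16520) was at 9.08 in sucrose and 10.34 in glucose (-1.31). All 5 were highest of 6 arrays in glucose at 48 h on the deposited scale. ATG8E passed the signal minimum through the glucose array alone. ATG8C, ATG8D, ATG3 and APG8H (also ATG8I) lay between -0.57 and -0.23, and ATG8G at 0.53. At 24 h the list's median was 0.04 with no call, and at 0 h it was -0.06.

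Genes of sugar starvation showed 2 calls of 7, both lower, beside 8.7% over all described probe sets, with a median of -0.87 against -0.46 at 0 h. AT3G15450, on the list by its locus tag, had 6.14, 4.26 and 4.39 in sucrose, against 7.69, 3.83 and 8.10 in glucose, a difference of -3.76. Signals were low on both 24 h arrays, and only the glucose array had returned to its 0 h level by 48 h. The 0 h pair already differed by -1.53 in this gene. AT3G15450 passed the signal minimum through the glucose array alone. AKINBETA1 (AT5G21170), a subunit of the SnRK1 energy-sensing kinase, was at 6.81 in sucrose and 8.17 in glucose (-1.41), and had differed by -0.88 at 0 h. ETFQO (AT2G43400), which takes electrons from amino acid breakdown in mitochondria, and BZIP53 (AT3G62420), a transcription factor of the low-energy response, differed by -0.92 and -0.87. MCCB, RAPTOR1 and EXO stood at -0.38, -0.03 and 0.71.

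Of 5 described starch genes, 2 were lower and none higher, beside 8.7% and 5.29% over all described probe sets, and their 0 h differences ran from -0.91 to 0.20. AMY1 (AT4G25000), an alpha-amylase, had 5.81, 5.92 and 7.07 in sucrose, against 5.63, 6.41 and 9.46 in glucose (-2.44). The ADP-glucose pyrophosphorylase subunit genes APL4 (AT2G21590) and APL3 (AT4G39210), which serve starch synthesis, differed by -1.09 and 0.96. APL3 had been at 9.65 in sucrose and 8.19 in glucose at 24 h and was at 7.88 and 6.87 at 48 h, lower on both sugars. PWD (AT4G24450, also ATGWD2), which shares its symbol with another locus and so was not matched to the list, was at 6.94 in sucrose and 9.39 in glucose (-2.50); it was chosen after its values were seen.

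A few metabolic genes outside the lists were picked from those called lower after their values were seen, so their common sign was fixed by the choice. ALN (AT4G04955), the allantoinase that releases nitrogen from purines, was at 6.79 in sucrose and 8.89 in glucose (-2.15). D2HGDH (AT4G36400), which oxidises 2-hydroxyglutarate in lysine breakdown, was at 5.63 and 7.43 (-1.85), ASPGB1 (AT3G16150), an asparaginase, at 4.55 and 6.02 (-1.52), and SDP1 (AT5G04040), a lipase of storage oil, at 6.67 and 7.70 (-1.09), each with sucrose before glucose. ACLA-2 (AT1G60810), a subunit of ATP-citrate lyase, which makes acetyl-CoA in the cytosol, was at 6.81 in sucrose and 8.85 in glucose (-2.09). D2HGDH and ASPGB1 passed the signal minimum through the glucose array alone.

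Photosynthesis genes had lower signals in culture than at 0 h on both sugars, and several were lower in sucrose. All 7 described genes had a negative sign at 48 h, 4 were called lower, beside 8.7% over all described probe sets, and the median was -1.10. PSBW (AT2G30570), a small subunit of photosystem II, had 12.23, 7.91 and 7.86 in sucrose, against 12.37, 9.68 and 9.24 in glucose (-1.43). PSAE-1 (AT4G28750) and PSAN (AT5G64040), subunits of photosystem I, differed by -1.42 and -1.16. PSAN passed the signal minimum through the glucose array alone. RCA (AT2G39730), the activase of Rubisco, was at 7.40 in sucrose and 8.45 in glucose (-1.10). The 0 h pair had them within 0.24, and the 24 h differences were larger, from -1.89 to -1.38 over these 4. The antenna gene LHCB4.1 (AT5G01530) was at 6.15 in sucrose and 7.10 in glucose, a difference just short of -1. RCA and LHCB4.1 are the described mesophyll markers, and both were bright in the cotyledons at 0 h, where RCA stood at 11.73 in sucrose and 11.52 in glucose. Both markers are also counted among the photosynthesis genes, and LHCB4.1 had differed by -0.41 at 0 h. The other measured marker, LHCB4.2, lay under the minimum on both 48 h arrays and differed by -0.18. Both described markers were thus lower in sucrose beside the xylan genes, with RCA alone called. The part of tissue composition in either difference was not tested. Of the 6 chlorophyll genes, 1 was called: NOL (AT5G04900), which acts in chlorophyll b breakdown, at 7.01 in sucrose and 8.13 in glucose (-1.18), after -0.63 at 0 h. CaS (AT5G23060), a calcium sensor of the chloroplast, was at 3.94 in sucrose and 6.65 in glucose (-2.76), after -2.91 at 24 h. CaS passed the signal minimum through the glucose array alone. The 1 described guard cell marker, FMA, differed by -0.30.

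Several anthocyanin genes were higher in sucrose. Anthocyanins are red and purple flavonoid pigments whose genes respond to sucrose in Arabidopsis. All 7 described genes had a positive sign, 4 were called higher beside 5.29% over all described probe sets, and the median was 1.93. That median was 0.88 over members at 6 or more on both arrays, and 0.90 with no filter or with signals raised to 6. AT4G14090, AT5MAT and UF3GT passed the signal minimum through the sucrose array alone. DFR (AT5G42800), the reductase at the entry to the anthocyanin branch, had 4.77, 11.38 and 10.28 in sucrose, against 5.47, 10.52 and 7.11 in glucose, a difference of 3.11 or 8.63-fold. Both sugars had brought it up by 24 h. AT4G14090 had 4.31, 8.53 and 7.16 in sucrose, against 4.84, 7.44 and 4.50 in glucose (2.60). AT5MAT (AT3G29590), which adds malonyl groups to anthocyanins, was at 7.08 in sucrose and 4.95 in glucose (2.07), and UF3GT (AT5G54060), which adds xylose to them, at 6.85 in sucrose and 4.86 in glucose (1.93). In all 4, signals at 48 h were under those at 24 h on both sugars, and further under in glucose. AT1G03495, AT1G03940 and CHIL (AT5G05270) differed by 0.90, 0.86 and 0.53. At 24 h all 7 were positive with 5 called, and the 0 h differences ran from -0.68 to 0.77.

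**Figure D4:**
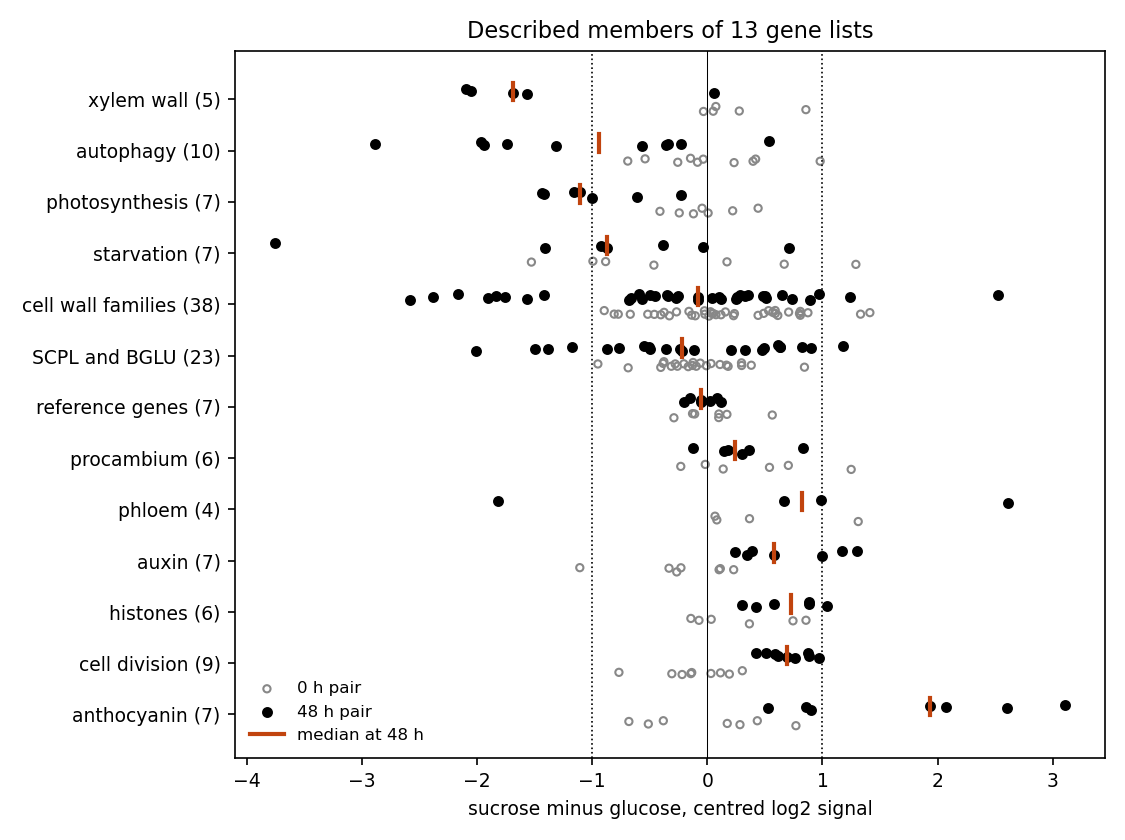
Sucrose minus glucose difference of centred log2 signal (x) for each described member of 13 gene lists (y, number of members in brackets), at 48 h (filled) and 0 h (open), with the 48 h median as a bar and dotted lines at 2-fold. Medians run from -1.69 for the xylem wall genes to 1.93 for the anthocyanin genes, with the reference genes at -0.06.

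SWEET13 (AT5G50800), a sucrose exporter that helps load phloem, was the 1 call among 4 described sugar transport and metabolism genes. It had 7.09, 8.18 and 8.59 in sucrose, against 5.80, 6.30 and 5.92 in glucose, differences of 1.31, 1.88 and 2.61. The 0 h arrays already differed past 2-fold in this gene. At 48 h SWEET13 passed the signal minimum through the sucrose array alone. Over all described probe sets 5.29% were called higher at 48 h. The vacuolar hexose transporters TMT1 (AT1G20840) and TMT2 (AT4G35300) differed by 0.38 and 0.30.

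None of the 9 described genes on the cell division list passed 2-fold at 48 h, beside 5.29% called higher over all described probe sets. The 9 differences ran from 0.42 to 0.97 with a median of 0.69, and from -0.77 to 0.30 at 0 h. All were above 0 at 48 h, as were 55.6% over all described probe sets. AUR1 (AT4G32830), a mitotic Aurora kinase, had 5.38, 8.37 and 10.87 in sucrose, against 5.62, 9.53 and 10.23 in glucose. It gained on both sugars, was 1.16 lower in sucrose at 24 h and 0.59 higher at 48 h. AT2G28620, AUR2 (AT2G25880), BUBR1 (AT2G33560) and PRL (AT4G02060, the MCM7 subunit of the replicative helicase) had the same turn, with 24 h differences of -1.68, -1.21, -1.20 and -1.49. AUR3 (AT2G45490) did not, at 1.49 and 0.97. BUB3.2 (AT1G49910) and Haspin (AT1G09450), which are not on the list, were called higher at 48 h, at 1.45 and 1.11. Both were chosen after their values were seen. All 6 histone genes were positive, from 0.30 to 1.04, with 1 call: HTB2 (AT5G22880), a histone H2B, at 9.15 in sucrose and 8.06 in glucose. HTB2 had differed by 0.74 at 0 h, and HTB4, at 0.30 at 48 h, by 0.86. HTR12, the centromeric histone H3, is counted in both lists.

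Of 7 described auxin genes all were positive and 2 called higher, beside 55.6% positive and 5.29% called higher over all described probe sets: GH3.1 (AT2G14960), which conjugates auxin to amino acids, was at 10.99 in sucrose and 9.63 in glucose (1.304), and YUC6 (AT5G25620), an auxin synthesis enzyme, at 7.27 in sucrose and 6.04 in glucose (1.17). GH3.3, also an auxin-conjugating enzyme, differed by 0.24 and by -1.11 at 0 h. RR16 (AT2G40670), a type-A response regulator that dampens cytokinin signalling, had 6.44, 2.29 and 4.94 in sucrose, against 5.92, 4.45 and 7.79 in glucose (-2.90). The other described cytokinin gene, ARR15 (AT1G74890), stood at -0.87. Among 3 brassinosteroid genes EXPA8 (AT2G40610), an expansin, was at 6.44 in sucrose and 8.56 in glucose (-2.17), and BIM1 and BRL1 differed by 0.40 and 0.61. ABR1 (AT5G64750), an ERF-type repressor of abscisic acid responses, was at 5.07 in sucrose and 7.25 in glucose (-2.24). None of 4 abscisic acid and osmotic genes was called. RR16 and ABR1 passed the signal minimum through the glucose array alone.

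Wall-loosening and wall-building families, 38 described genes, gave 8 calls lower and 2 higher with a median of -0.08; TBL31, TBL33, TBL34 and EXPA8, given above, are among them. Over all described probe sets 8.7% were lower and 5.29% higher, and the families' 0 h differences ran from -0.90 to 1.41. EXPB1 (AT2G20750), a beta-expansin, had 6.29, 5.69 and 5.81 in sucrose, against 6.69, 7.82 and 8.35 in glucose (-2.59). No cultured sucrose array passed the signal at 0 h. XTH16 (AT3G23730), an enzyme that cuts and rejoins xyloglucan, went the other way, at 6.66 in sucrose and 4.08 in glucose (2.53), after 0.60 at 24 h and 0.80 at 0 h. The other call higher was TBL39 (AT2G42570, 1.24). Of the 38 genes, 28 had no call. Among those called, EXPB1, TBL31 and GH9B17 passed the signal minimum through the glucose array alone, and XTH16 through the sucrose array alone.

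The microtubule, glycosidase and transferase families gave few calls, to be read beside 8.7% lower and 5.29% higher over all described probe sets. Among microtubule genes, 3 of 20 were lower and none higher: TRM30 (AT5G42710) and TRM15 (AT4G00440), which carry the motif that recruits TONNEAU1, at -2.26 and -1.07, and the calmodulin-binding scaffold IQD20 (AT3G51380) at -1.31. TRM30 was already at 4.52 in sucrose and 6.66 in glucose at 24 h. Of 23 carboxypeptidase-like and beta-glucosidase genes, 4 were lower, all beta-glucosidases, and 1 was higher. BGLU33 (AT2G32860) had 9.78, 9.48 and 11.37 in sucrose, against 9.93, 10.16 and 13.33 in glucose (-2.01), and BGLU28, BGLU16 and BGLU25 ranged from -1.49 to -1.17; BGLU28 had differed by -0.69 at 0 h. The gene called higher, scpl50 (AT1G15000), had 2 described probe sets, both called, at 1.18 and 1.82. Of 13 glucosyltransferase genes 3 were lower, led by UGT73B1 (AT4G34138, -1.66), ahead of UGT71B5 and UGT73B5. Of 5 glutathione transferase genes 2 were lower, GSTF4 (AT1G02950, -2.25) and GSTU18 (AT1G10360, -1.69, after -0.74 at 0 h). BGLU16, UGT71B5, UGT73B5 and GSTU18 passed the signal minimum through the glucose array alone. The 0 h differences ran from -1.58 to 1.32 in the microtubule genes, from -0.95 to 0.84 in the carboxypeptidase-like and beta-glucosidase genes and from -0.34 to 0.92 in the glucosyltransferase genes. The vacuolar protease gene BETA-VPE (AT1G62710) was higher, at 8.29 in sucrose and 7.10 in glucose (1.14), and GAMMA-VPE differed by -0.05. On the WRKY and bHLH lists, none of the 3 described members each was called. The bHLH list was matched by symbol and held 16 genes, so bHLH genes outside it are not counted.

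The highest differences of all were again mostly at loci that RefSeq lists by tag without a symbol. AT3G46280 had 10.65, 9.98 and 7.16 in sucrose, against 9.54, 5.52 and 3.85 in glucose, a difference of 3.25 after 4.46 at 24 h and 1.12 at 0 h. It declined on both sugars and further in glucose. AT2G23910 had 3.67, 8.34 and 6.55 in sucrose, against 4.22, 5.40 and 3.69 in glucose (2.81). Another 10 loci of the 15 highest lay between 2.18 and 2.58, among them AT2G04070, which was at 6.00 in sucrose and 3.46 in glucose. Among genes with a symbol, GLR2.7 (AT2G29120), a glutamate receptor-like channel, was at 8.93 in sucrose and 6.92 in glucose (1.96). The peroxidase gene Prx37 (AT4G08770) was at 6.40 in sucrose and 4.50 in glucose (1.85). MSRB8 (AT4G21840), a methionine sulfoxide reductase, had 3.42, 8.93 and 6.82 in sucrose, against 3.42, 6.45 and 5.17 in glucose (1.60). DFO (AT1G07060), a gene of meiotic double-strand break formation, ENGase85A (AT5G05460), which trims glycans, and ARPN (AT2G02850), a plantacyanin, differed by 1.64, 1.50 and 1.47. DFO was at 6.00 in sucrose and 4.31 in glucose, so its call, like that of AT2G04070, rests on signals at and under the minimum.

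**Figure D5:**
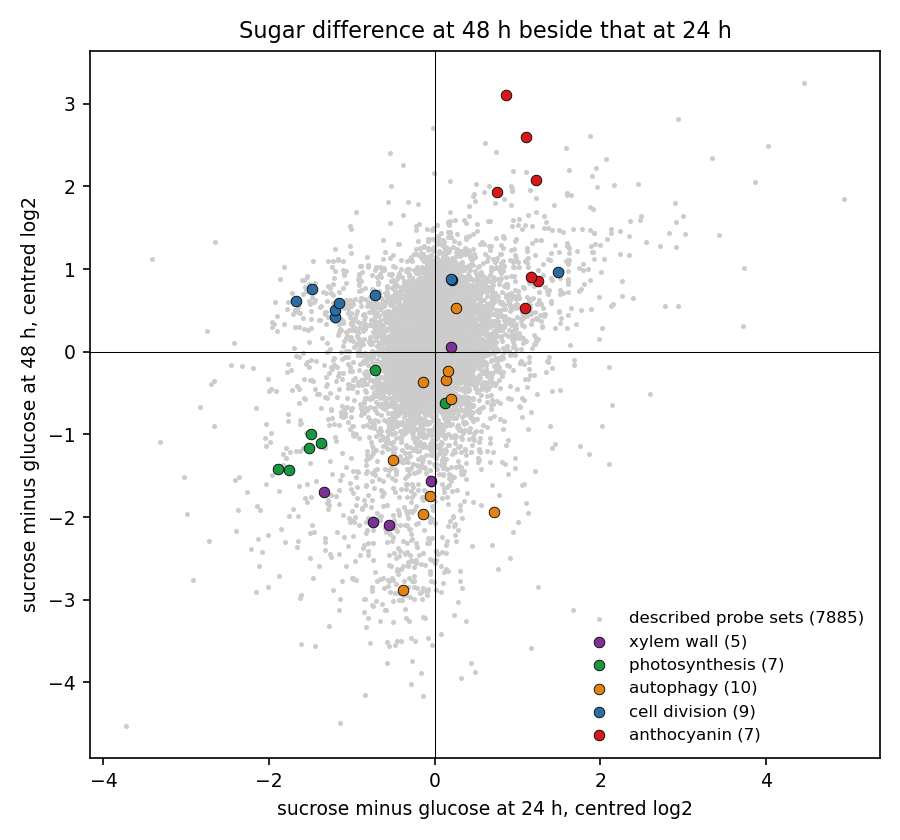
Sucrose minus glucose difference of centred log2 signal at 48 h (y) against that at 24 h (x) for 7885 described probe sets (grey) and the members of 5 lists (colours). Photosynthesis genes lie mostly low on both axes, anthocyanin genes high on both, autophagy genes low at 48 h around 0 at 24 h, and 6 of 9 cell division genes below 0 at 24 h and above 0 at 48 h.

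Reference genes, used elsewhere to scale expression, stayed close: none of 7 was called, and they ranged from -0.20 to 0.12 with GAPC2 (AT1G13440) at 11.55 in sucrose and 11.65 in glucose. Over all gene lists, 214 of 2369 genes were described, and 455 had a probe set with 1 gene.

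Some called genes were next to each other in the genome. Of 369 lower genes with a described next neighbour, 80 (21.7%) had a neighbour that was also lower, against 351 of 3886 others (9.03%). For higher genes it was 34 of 216 (15.7%) against 219 of 4039 (5.42%). Among the 44 adjacent lower pairs were AT1G11490 and AT1G11500, at -3.95 and -4.02, and the 17 higher pairs held MSRB8 and MSRB9 (AT4G21850), at 1.60 and 1.80. Genes next to each other can be tandem copies or overlap, and the probes were not checked for that.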

How the data were processed

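Each sample's values are log2 signals per probe set, as the authors deposited them. The submitters' processing notes name GCOS without a version. The background correction and the normalization were not given in the sources used here, and the log base was inferred from the range of the values. Per the labels, RNA was amplified before labelling, which can shift relative levels.

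Each array was centred on its median over 1-gene probe sets (5.49 for sucrose and 5.43 for glucose at 48 h), so a difference departs from that of the deposited signals by 0.05. Of 16722 1-gene probe sets, 16574 matched the RefSeq table of TAIR10.1 by gene ID and 96 by locus tag; 52 matched neither. The table's 20829 unlisted probe sets, 759 with several genes and 98 controls stay unnamed. Symbols, or locus tags where there was none, come from that table.

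Groups hold 1 array each, so no p-value is given, and precision is limited by the number of arrays. Whether the arrays stem from separate cultures is not said in the labels. The members and the 41 gene lists were chosen with earlier results of these data known. Named were the 15 highest and 15 lowest differences, and the 10 highest and 10 lowest with a symbol, where the 0 h difference was under 50% as large; up to 4 called members of largest size per list of at least 3 described; and every xylem wall, phloem and procambium gene. Other names are said to be chosen later or are further members of a list. A gene with several probe sets is given by the one of higher 48 h mean. From the lists 11 symbols were left out after matching, since they point to unrelated genes, such as cyclophilins among the P450 symbols. A planned search for promoter motifs was not run, as no sequence was used here.

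Alternatives changed the centring, the normalization, the signal filter and the size of a call. The scripts were tested on simulated shifts. Software was Python 3.11.15, numpy 2.4.6, pandas 2.3.3, statsmodels 0.14.6 and matplotlib 3.10.9.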

Additional observations from a re-analysis of the deposited data

Results flagged for a closer look

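The phloem list had a median sugar difference of 0.83 at 48 h and -0.66 at 24 h, and the cell division list 0.69 at 48 h and -1.16 at 24 h; the sign turned between the times, and the difference between times was not tested. The phloem median rests on 4 genes, of which SWEET13 stayed positive and CLE45 negative at both times. AT1G67520 turned from the opposite side, with -3.58 at 48 h and 1.17 at 24 h, on 1 pair of arrays each time, and this was not tested either. Probe sets without a listed gene, which no comparison of named genes used, were at least 2-fold apart at 48 h in 24.95% of the bright ones, above the 11.4% of the 0 h pair.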

How the results depend on the processing

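No paired analysis was possible because every group holds 1 array and the labels number no second replicate, so no array could be left out either. Under 8 other settings of centring, normalization and filter, and 1 chosen after seeing the data, the counts at 48 h were within 1.5 times of 686 lower and 417 higher except with a signal of 6 or more on both arrays, which left 431 lower and 255 higher. At 4-fold they were 265 lower and 30 higher, and over all probe sets outside controls 1286 lower and 2626 higher. Without the probe sets already 2-fold apart at 0 h, the alternative chosen after seeing the data, 656 were lower and 367 higher. Of 207 list medians recomputed, 201 moved by less than 0.51, the standard deviation of the 0 h differences. The exceptions were the anthocyanin list, at 0.88 with both arrays at 6 or more and 0.90 with no filter or with signals raised to 6; the xylem wall list, at -0.86 with signals raised to 6; and, with the minimum at 7, the chlorophyll list at -0.86 and the brassinosteroid list at -0.89. With signals raised to 6, DFO stood at -0.0485 and AT2G04070 at -0.0488, since their 48 h signals lay at or under that floor; of 673 values of named genes, 639 moved by less than 0.51. Members that are dim on 1 array, such as LCR29, have differences set in part by background, and no replicate shows how far any single value would repeat.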

Other observations

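Some further genes with a symbol, chosen after their values were seen, were past 2-fold at 48 h. The subtilisin-like protease genes SBTI1.1 (AT1G01900) and SBT3.12 (AT4G21326) were lower in sucrose, at 8.47 in sucrose and 10.40 in glucose (-1.98) and at 7.27 in sucrose and 9.13 in glucose (-1.91). The AP2-type transcription factor genes SMZ (SCHLAFMUTZE) and LEP (LEAFY PETIOLE) stood at -2.09 and -1.98. The tetraspanin genes TET6 and TET10, which encode membrane proteins, were called in opposite directions, at -2.35 and 1.35. LCR25 (AT4G29305), a small cysteine-rich protein gene like LCR29, was at 10.72 in sucrose and 9.54 in glucose at 48 h (1.13), after a difference of -3.41 at 24 h. MSRB9, next to MSRB8 in the genome, had differed by 2.83 already at 0 h, more than its 1.80 at 48 h. LHB1B2 (AT2G34420), an antenna gene of photosystem II that is not on the photosynthesis list by symbol, was at 6.89 in sucrose and 8.32 in glucose (-1.48).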
